A study of Gallus gallus with 3 samples.

Results

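Genes for 10 plasma proteins made by liver and yolk sac were examined in chick endoderm, from which the lining of the gut arises. The members were chosen by name, with earlier results of these data known. They were TTR, APOH, the fibrinogen chain genes FGA, FGB and FGG, A2M, APOA1, APOB, ALB and AFP. All 10 had at least 1 probe set on the array, out of 13008 named genes, and none had to be left out. They were covered by 21 probe sets that the platform annotation gave to 1 gene and by 1 further probe set that it gave to both A2ML2 and A2M. Although the working name of the group placed these genes in early endoderm, 4 of the 10 were below the signal floor there, and APOA1 alone had its highest signal in that tissue.

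The arrays held RNA from 3 endoderm tissues of chick embryos, with no drug, transgene or mutation named in the labels. Foregut endoderm, taken at Hamburger-Hamilton stages 10 to 11, was the endoderm in front of the anterior intestinal portal. Mid/hindgut endoderm, taken at stages 8 to 10, was the gut endoderm behind the future small intestine. Both were cut out with mesenchyme and freed from it in 0.03% collagenase for 30 minutes. Early endoderm was the endoderm layer of 500 embryos at stages 4 to 5, lifted from the mesenchyme with a needle, with no enzyme named. Each tissue was pooled over 1 day and measured on 1 Affymetrix Chicken Genome Array, so every group has n = 1, no test was possible and no difference has a replicate check. Stage, region and enzyme treatment change together between early endoderm and the later tissues and cannot be told apart. Foregut and mid/hindgut shared the enzyme treatment but differed in region and in stage, which cannot be told apart either.

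Plasma proteins are secreted mainly by hepatocytes in the adult. Before the liver forms, the endoderm of the yolk sac makes many of the same proteins, and in the chick it packs yolk lipid into lipoproteins that pass to the embryonic blood. The genes are classic targets of liver-enriched transcription factors of the HNF1, HNF4, FOXA and C/EBP families.

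Signals below are MAS5 intensities after scaling the arrays to a common trimmed mean, and a floor of 22.1 signal units marks the level under which a signal was not told from background. On the arrays 2.76% of 689 viral probe sets in foregut, 2.18% in mid/hindgut and 1.31% in early endoderm lay above that floor. A difference is a log2 difference of floored signals, and where a tissue was at the floor the fold is given as "at least", being a minimum. Signals of different genes come from different probes, and outside the list sums they were not compared with each other. The sums given for cell type lists add such signals, so bright probe sets weigh most in them. Genes with 2 probe sets, of which there were 4134, supplied the one kind of repeat these arrays hold. The disagreement of the 2 brightest such probe sets of a gene gave a technical standard deviation (SD) of the log2 difference. It was 0.43 in foregut against early endoderm, 0.31 in mid/hindgut against early endoderm and 0.36 between foregut and mid/hindgut. A span of 2 technical SD is 1.81-fold, 1.54-fold and 1.65-fold in the same comparisons, and 1.97-fold, 1.72-fold and 1.79-fold for genes whose dimmer probe set was under 100 units. This spread leaves out variation between pools and embryos, and any probe set below the floor on an array, such as the dim ones of TTR and A2M. It also leaves out any error of labelling, hybridisation or array that both probe sets of a gene share. GAPDH stood at 10917 in foregut, 11260.5 in mid/hindgut and 11207 in early endoderm, and ACTB at 10646 in foregut, 11255 in mid/hindgut and 11683 in early endoderm.

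Of the 10 plasma protein genes, 7 were at least 2-fold higher in mid/hindgut than in early endoderm, 1 was lower, and ALB and AFP were below the floor in both. Over all 10745 genes measured in that comparison 8.12% were at least 2-fold higher and 5.13% lower. In foregut against early endoderm 4 of the 10 were higher, 1 was lower, 3 were within 2-fold and FGA and APOB were below the floor in both, where 10.6% of 10800 genes were higher and 6.49% lower. In foregut against mid/hindgut endoderm 5 of the 10 were lower, 5 were within 2-fold and 0 were higher, where 6.37% of 10906 genes were higher and 5.74% lower. The median log2 difference of the measured members was 0.95 in foregut against early endoderm, 2.82 in mid/hindgut against early endoderm and −1.15 between foregut and mid/hindgut, beside 0.08, 0.03 and 0.02 over all measured genes. FGA and APOB were measured only through the tissue where they were high, and ALB and AFP only through foregut, so these medians are descriptions. The 6 members above the floor on all arrays, TTR, APOH, FGB, FGG, A2M and APOA1, had medians of 1.54, 4.13 and −1.38, beside 0.06, 0.02 and 0.02 for the 9124 genes above it on all arrays. Comparisons with the same early array share its error. With other scalings the split of all called genes moved: 62.0% of the genes called in foregut against early were higher, against 38.0% without scaling and 90.4% with scaling on hybridisation controls, and in mid/hindgut against early 61.3% were higher, against 42.6% without scaling. In foregut against mid/hindgut the share was 52.6%, and 90.2% with scaling on hybridisation controls and 65.5% with scaling on ribosomal protein genes. The member counts in the 3 comparisons were the same under those 3 scalings and under quantile normalization.

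**Figure D1:**
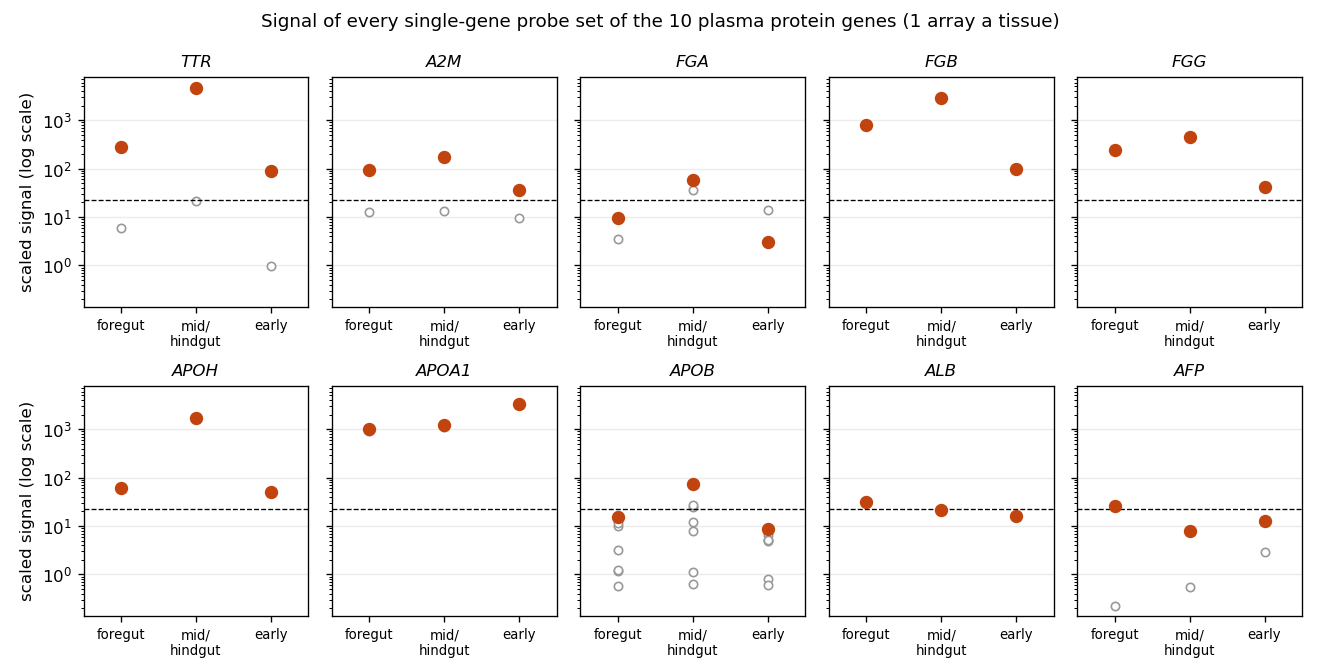
Scaled signal (log axis) of each probe set of the 10 plasma protein genes in foregut, mid/hindgut and early endoderm, 1 array a tissue. Filled points are the probe set that stands for the gene, open grey points the gene's other probe sets, and the dashed line is the floor of 22.1. TTR, APOH, FGB, FGG and A2M peak in mid/hindgut, APOA1 is highest in early endoderm at 3305, and ALB and AFP lie near or below the floor.

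The carrier gene TTR showed the widest span of the 10. Transthyretin carries thyroid hormone and, bound to retinol-binding protein, retinol. Its signal was 282 in foregut, 4718 in mid/hindgut and 87.5 in early endoderm, so all tissues were above the floor and mid/hindgut stood far above both others. TTR was 53.9-fold higher in mid/hindgut than in early endoderm, a log2 difference of 5.75, and ranked 7 from the top among the 10745 measured genes. It was 3.22-fold higher in foregut than in early endoderm and 16.8-fold lower in foregut than in mid/hindgut, and each step was wider than 2 technical SD. A second probe set for TTR was dim, at 5.92 in foregut, 21.9 in mid/hindgut and 0.989 in early endoderm. It lay below the floor on all arrays, so it gave no measured difference. When the median of both probe sets stood for TTR, foregut against early endoderm was within 2-fold, at a log2 difference of 0.84.

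A2M encodes alpha-2-macroglobulin, a protease inhibitor of plasma. Its signal was 96.0 in foregut, 172 in mid/hindgut and 36.5 in early endoderm. The order was the one seen for TTR, with a smaller span: 2.63-fold higher in foregut and 4.71-fold higher in mid/hindgut than in early endoderm. Foregut was 1.79-fold below mid/hindgut, a step at the limit of 2 technical SD for dim genes. A second A2M probe set was below the floor on all arrays, at 12.8 in foregut, 13.6 in mid/hindgut and 9.49 in early endoderm. With the median of both, or with the floor at the 60th percentile of chicken probe sets, A2M in foregut against early endoderm was within 2-fold, at 0.70 and 0.67 in log2.

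Fibrinogen, the clotting protein that thrombin turns into fibrin, is built from 3 chains encoded by FGA, FGB and FGG, and all chains are needed for its secretion. FGB, for the beta chain, had signals of 785 in foregut, 2845 in mid/hindgut and 98.2 in early endoderm. The tissues were well separated, with FGB 8.00-fold higher in foregut and 29.0-fold higher in mid/hindgut than in early endoderm, and 3.62-fold lower in foregut than in mid/hindgut. FGG, for the gamma chain, had signals of 244 in foregut, 455 in mid/hindgut and 42.8 in early endoderm. It was 5.71-fold higher in foregut and 10.6-fold higher in mid/hindgut than in early endoderm, and foregut was 1.86-fold below mid/hindgut, more than 2 technical SD but within 2-fold. FGA, for the alpha chain, was above the floor only in mid/hindgut, with 9.63 in foregut, 58.6 in mid/hindgut and 3.08 in early endoderm. It was at least 2.65-fold higher in mid/hindgut than in either other tissue. Its second probe set was likewise above the floor only in mid/hindgut, at 36.1, against 3.59 in foregut and 14.1 in early endoderm. That made it at least 1.63-fold higher in mid/hindgut, short of 2-fold, so the call of FGA rests on 1 probe set.

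All 3 chains were highest in mid/hindgut, and FGA has no measured order between foregut and early endoderm. FGB and FGG differed in the size of their differences. The mid/hindgut against early log2 difference was 4.86 for FGB and 3.41 for FGG, and the gap of 1.45 between them was 3.30 times its technical SD of 0.44. In foregut against early endoderm the same chains differed by 0.49, which was 0.80 times the technical SD. FGB and FGG each had 1 probe set, so neither value has a second reading.

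APOH, also called beta-2-glycoprotein I, is a phospholipid-binding plasma protein. Its signal was 61.3 in foregut, 1748 in mid/hindgut and 50.0 in early endoderm, from 1 probe set. Mid/hindgut alone was high: APOH was 35.0-fold higher there than in early endoderm, rank 13 from the top of 10745 genes, and 28.5-fold lower in foregut than in mid/hindgut. Foregut and early endoderm were 1.23-fold apart, within 2 technical SD. TTR, FGB, FGG and A2M were all at least 2-fold higher in foregut than in early endoderm, and APOH was not.

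APOA1 encodes the main protein of high-density lipoprotein and ran the other way. Its signal was 990.2 in foregut, 1244 in mid/hindgut and 3305 in early endoderm. Early endoderm stood above both later tissues, which were close to each other: APOA1 was 3.34-fold lower in foregut and 2.66-fold lower in mid/hindgut than in early endoderm, and foregut and mid/hindgut were 1.26-fold apart, within 2 technical SD. A second probe set, made from the same source sequence and thus not an independent reading, gave 942 in foregut, 1107 in mid/hindgut and 3239 in early endoderm. Both carry the suffixes that mark probe sets shared between transcripts, so without such probe sets APOA1 has no value.

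APOB encodes the structural protein of the very low and low-density lipoproteins. Its signal was 15.7 in foregut, 75.2 in mid/hindgut and 8.66 in early endoderm, so mid/hindgut alone was above the floor, and APOB was at least 3.40-fold higher there than in either other tissue. It had the most probe sets of the group, 7. Of these, 3 were above the floor in mid/hindgut, with 25.0 and 27.4 beside the 75.2, and 0 were above it in foregut or early endoderm. The probe sets at 25.0 and 27.4 were at least 1.13-fold and 1.24-fold higher in mid/hindgut than in early endoderm. The 2-fold call of APOB thus rests on 1 probe set. With the floor at the 60th percentile the log2 difference of APOB against early endoderm was at least 0.31, within 2-fold.

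ALB, for serum albumin, and AFP, for the fetal albumin relative alpha-fetoprotein, lay near the floor or below it. ALB had signals of 31.5 in foregut, 21.7 in mid/hindgut and 15.8 in early endoderm, and AFP had 25.5 in foregut, 7.76 in mid/hindgut and 12.95 in early endoderm. Each was above the floor in foregut alone, by 1.42-fold for ALB and 1.15-fold for AFP. Of the viral probe sets on the foregut array, 1.16% were brighter than ALB and 1.74% brighter than AFP. These signals do not settle whether either gene was transcribed at a low level.

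**Figure D2:**
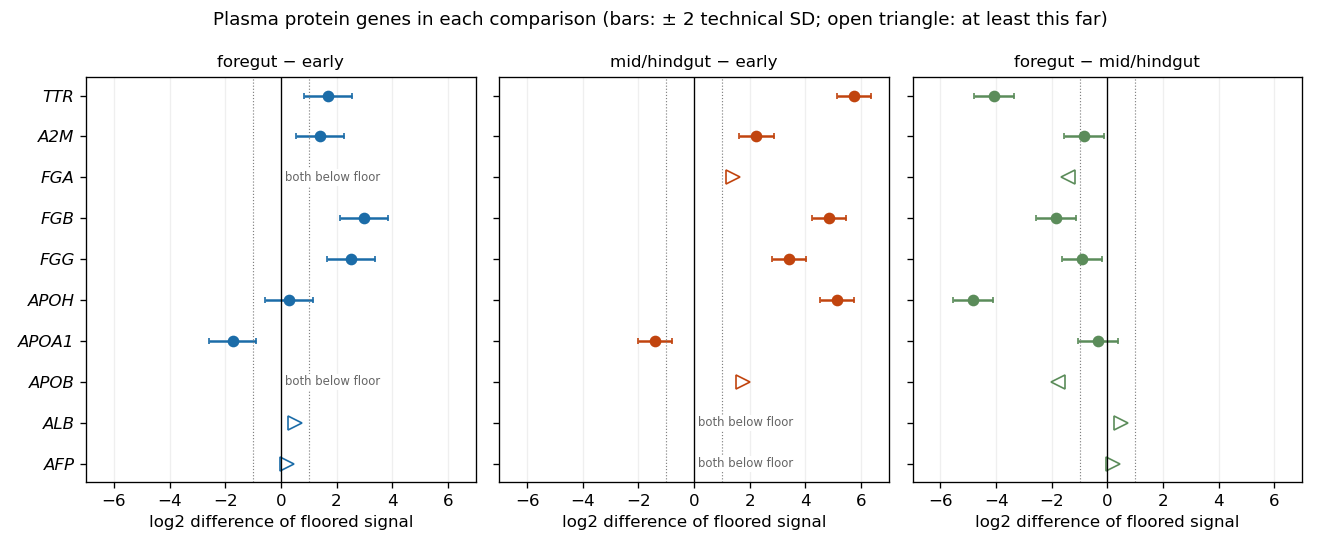
Log2 difference of floored signal of the plasma protein genes in the 3 comparisons. Points carry bars of 2 technical SD on each side, open triangles are bounds against a tissue at the floor, and dotted lines mark 2-fold. In mid/hindgut against early endoderm TTR, APOH and FGB lie at 4.86 or above, while APOA1 is at −1.41.

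Chromosomal position was compared next, using only the order of protein-coding genes in the RefSeq annotation of the assembly GRCg7b. FGB, FGA and FGG are direct neighbours in that order, with PLRG1, a splicing factor gene, next to FGB. PLRG1 had signals of 504 in foregut, 502 in mid/hindgut and 435 in early endoderm, within 2-fold of each other on all arrays, beside the 29.0-fold difference of FGB. LRAT, which lies beyond FGG, was below the floor in every tissue. ALB and AFP are also direct neighbours, and both were near the floor. Next to TTR lies DSG2, a desmosomal cadherin gene, at 117 in foregut, 278 in mid/hindgut and 72.9 in early endoderm. Like TTR it was highest in mid/hindgut, with a log2 difference of 1.93 against early endoderm, while foregut and early endoderm were within 2 technical SD of each other at 0.68. Of 28 genes within 2 places of a member, 16 were measured in that comparison. DSG2 was higher and KLHL29 lower, beside 8.12% and 5.13% over all measured genes. In foregut against early endoderm 15 were measured, with 0 higher and 1 lower, beside 10.6% and 6.49%. In foregut against mid/hindgut 15 were measured, with 0 higher and 2 lower, beside 6.37% and 5.74%. Those 2 were DSG2 at −1.25 and AXIN2, a Wnt pathway gene 2 places from APOH, at −1.30 in log2, the direction of TTR and APOH. On so few genes these counts were not told apart from the shares over all genes. APOA4, 2 places from APOA1, was above the floor only in mid/hindgut, at 29.5, against 21.5 in foregut and 9.67 in early endoderm, and did not share the early maximum of APOA1.

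**Figure D3:**
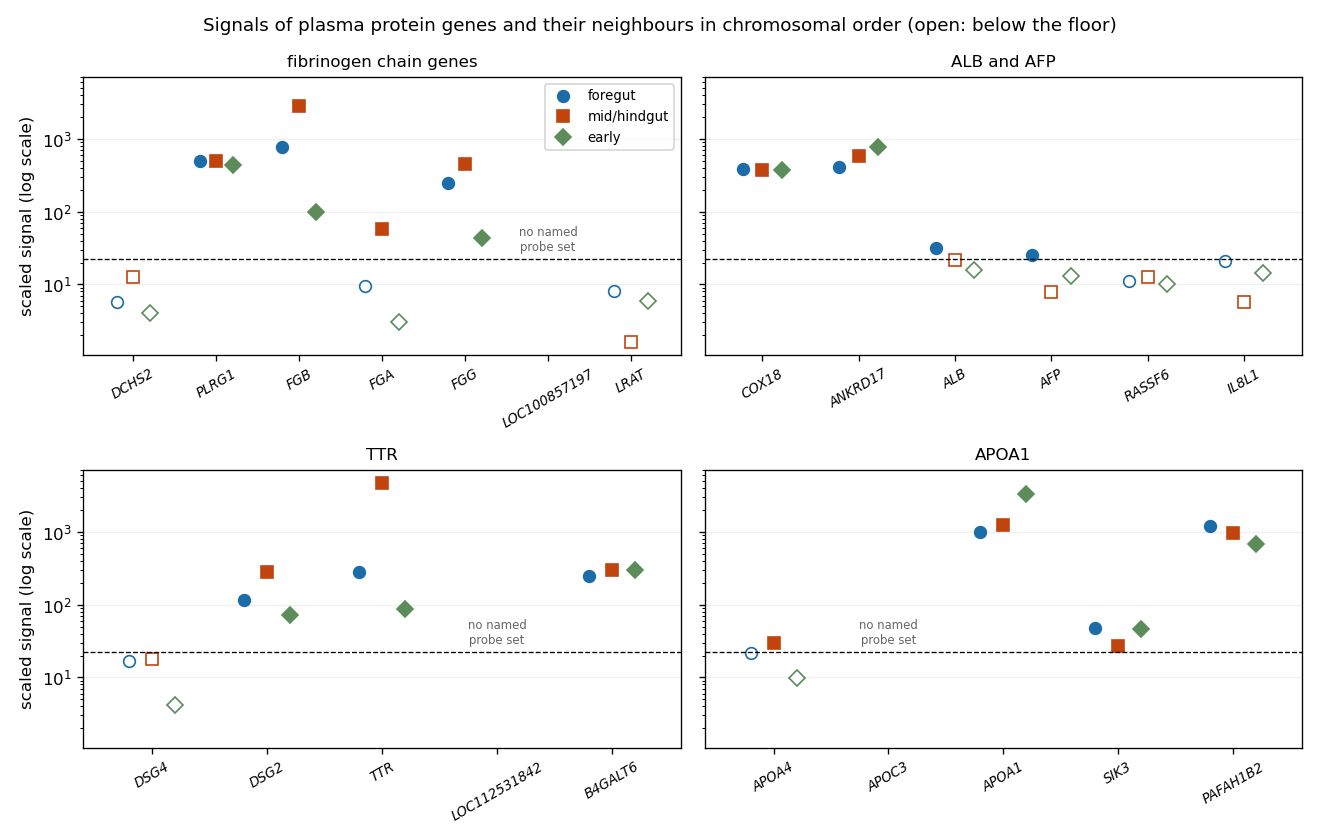
Scaled signal (log axis) of plasma protein genes and the genes next to them, in chromosomal order but not to scale in distance. Circles are foregut, squares mid/hindgut and diamonds early endoderm, open symbols lie below the floor of 22.1 (dashed), and genes without a named probe set are marked. FGB spans 98.2 to 2845 beside PLRG1, whose signals lie between 435 and 504.

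Other genes of plasma protein synthesis were compared in lists drawn up by name. Earlier results of these data were known then too, so contrasts between the lists and the members are descriptions. Of 21 other coagulation and fibrinolysis genes on the array 14 were measured in mid/hindgut against early endoderm, with a median log2 difference of 0.34. Of these, 5 (35.7%) were higher and 2 (14.3%) lower, beside 8.12% and 5.13% over all measured genes. All 5 higher genes were below the floor in early endoderm and so were measured only through mid/hindgut. F2, for prothrombin, was at 40.2 in foregut, 177 in mid/hindgut and 1.71 in early endoderm, under the floor, which makes it at least 8.00-fold higher in mid/hindgut than there. PLG, for plasminogen, was at 32.6 in foregut and 54.1 in mid/hindgut, and SERPIND1, for heparin cofactor II, at 30.5 in foregut and 61.6 in mid/hindgut, both below the floor in early endoderm. The other higher genes were TFPI and VWF, which are known from endothelium, and TFPI was within 2-fold, at 0.85 in log2, without probe sets shared between transcripts. F5 and F10 were lower, with F10 at 45.8 in foregut, 41.7 in mid/hindgut and 127 in early endoderm. F9, KNG1, HRG, KLKB1 and CPB2 were below the floor in every tissue. Of the 14 measured in foregut against mid/hindgut, 1 (7.14%) was higher and 3 (21.4%) lower, beside 6.37% and 5.74% over all measured genes. The list median there was −0.36.

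Of 33 carriers, inhibitors and complement genes 20 were measured in mid/hindgut against early endoderm, with a median of 0.34. Of these, 3 (15%) were higher and 1 (5%) lower, beside 8.12% and 5.13% over all measured genes. GC, the vitamin D carrier of the albumin family, was at 47.5 in foregut, 199 in mid/hindgut and 43.1 in early endoderm, a pattern like that of APOH with mid/hindgut alone high. It was 4.61-fold higher in mid/hindgut than in early endoderm and 4.18-fold lower in foregut than in mid/hindgut. The complement gene C3 was at least 2.36-fold higher in mid/hindgut than in early endoderm. C5 was 2.20-fold higher, but within 2-fold, at a log2 difference of 0.57, when the median of its probe sets stood for it. VTN, for vitronectin, was at 1492 in foregut, 446 in mid/hindgut and 589 in early endoderm. TF, the iron carrier ovotransferrin, was level at 1721 in foregut, 1981 in mid/hindgut and 2012 in early endoderm. RBP4A, a gene of the retinol-binding proteins that transthyretin pairs with, was at 43.0 in foregut, 2119 in mid/hindgut and 2649 in early endoderm. Foregut alone was low, 61.6-fold below early endoderm and 49.3-fold below mid/hindgut, so RBP4A did not follow TTR, which was low in early endoderm too. RBP4, also in this list, was below the floor in every tissue. IGFBP1 shared the early maximum of APOA1, below the floor in foregut, at 29.3 in mid/hindgut and at 231 in early endoderm. Of the 20 measured in foregut against mid/hindgut, 1 (5%) was higher and 5 (25%) lower, beside 6.37% and 5.74% over all measured genes. The list median there was −0.50.

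Of 24 lipoprotein and lipid transport genes 16 were measured in mid/hindgut against early endoderm, with a median of 0.00. Of these, 4 (25%) were higher and 2 (12.5%) lower, beside 8.12% and 5.13% over all measured genes. MTTP, the transfer protein that loads lipid onto APOB, was above the floor only in mid/hindgut, at 150.5, against 21.6 in foregut and 18.5 in early endoderm. It was at least 6.80-fold higher there than in either other tissue, and like APOB was above the floor in that tissue alone. SAR1B, needed to move lipoprotein particles out of the endoplasmic reticulum, was at 808 in foregut, 1273 in mid/hindgut and 417 in early endoderm, 3.05-fold higher in mid/hindgut than in early endoderm. SOAT1, which esterifies cholesterol, was 3.48-fold higher at 1317 in mid/hindgut, against 378 in early endoderm. LCAT, the plasma enzyme that APOA1 activates, was at 55.2 in foregut, 207 in mid/hindgut and 73.4 in early endoderm, and so did not share the order of APOA1. DGAT2, of triglyceride synthesis, and FABP3 were lower, but the log2 difference of DGAT2 was −0.59, within 2-fold, where hybridisation controls set the scale. That scaling left the median of all measured genes at 0.04, and the cause of the DGAT2 change was not tested. The fatty acid binding genes FABP1 and FABP2 were below the floor in every tissue. Of the 16 measured in foregut against mid/hindgut, 1 (6.25%) was higher and 5 (31.25%) lower, beside 6.37% and 5.74% over all measured genes. The list median there was −0.33.

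Of 23 transcription factors of liver and yolk sac endoderm 18 were measured in mid/hindgut against early endoderm, with a median of 0.03. Of these, 2 (11.1%) were higher and 2 (11.1%) lower, beside 8.12% and 5.13% over all measured genes. NR5A2, a nuclear receptor of liver, pancreas and intestine, was at 92.4 in foregut, 535 in mid/hindgut and 28.7 in early endoderm. It was 18.6-fold higher in mid/hindgut and 3.22-fold higher in foregut than in early endoderm, the tissue order of TTR and FGB. CEBPB was 2.92-fold higher in mid/hindgut than in early endoderm. HNF4A was below the floor in foregut, at 43.1 in mid/hindgut and at 86.6 in early endoderm. It was 2.01-fold lower in mid/hindgut than in early endoderm, and within 2-fold under 5 of the alternatives, among them the median of its probe sets with a log2 difference of −0.69. CEBPA had 26.9 in foregut and was below the floor in the other tissues, and GATA4 was below it in all. In foregut against mid/hindgut 6 of 20 measured factors (30%) were lower and 0 higher, beside 5.74% and 6.37% over all measured genes. The lower ones included NR5A2 by 5.79-fold, GATA6 by 3.01-fold and GATA5 by 2.73-fold. Where hybridisation controls set the scale, GATA5 had a log2 difference of −0.88 there. With the floor at the 60th percentile SERPIND1, VWF, C5, DGAT2, CEBPB and HNF4A were within 2-fold in mid/hindgut against early endoderm, and NR5A2 in foregut against early endoderm.

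**Figure D4:**
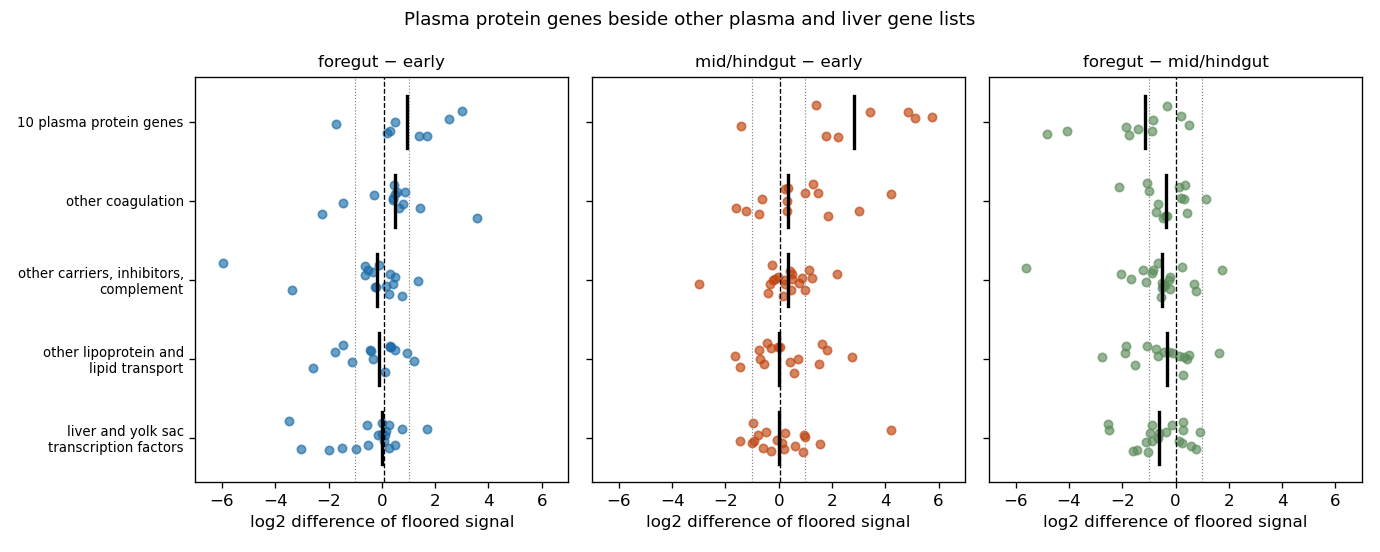
Log2 difference of floored signal for the measured genes of 5 lists in the 3 comparisons. Each point is a gene, thick bars are list medians, the dashed line is the median of all measured genes and dotted lines mark 2-fold. In mid/hindgut against early endoderm the median of the plasma protein genes is 2.82, and those of the 4 other lists lie between 0.00 and 0.34. In foregut against mid/hindgut it is −1.15, and those of the 4 other lists lie between −0.64 and −0.33. Members and lists were drawn up with earlier results of these data known.

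The genes nearest to a member in their pair of log2 differences (foregut against early, mid/hindgut against early) were listed for the 5 members spanning 4-fold or more with a peak in mid/hindgut, among 11135 genes. With 3 arrays the likeness rests on 2 differences that share the early array. A gene below the floor in a tissue has bounds in place of differences, so its distance and place in the order depend on the floor, and distances are given only for genes above the floor in every tissue. Nearest to TTR were HBBR, NKX6-1, HBZ, PITX1 and HBA1, of which NKX6-1, HBZ and HBA1 lay at Euclidean distances of 1.21, 1.26 and 1.35 in log2 and the others were below the floor in early endoderm. Nearest to APOH were HOXD4, SLC7A9, HOXA4, HOXA6 and SPP1. Of these SPP1, at 0.78, was above the floor in every tissue, and the other 4 were above it in mid/hindgut alone. Nearest to FGB were HBZ, SELENOP1 and LGALS3, at 0.77, 0.79 and 0.92, with TFPI and KLHL4, which were below the floor in early endoderm. Nearest to FGG were PRSS23, MRC1, GALNT18 and LMO7, at 0.08, 0.08, 0.11 and 0.27, with RCSD1 below the floor in early endoderm. Nearest to A2M were ACAP3, RHOBTB1, RASGRP3 and LOC419112, at 0.08 to 0.13, with SOX9 below the floor in early endoderm. None of the 10 members was among these nearest genes.

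Markers of other cell types were compared in the same way, and the lists did not all run alike. Over all measured genes 8.12% were higher and 5.13% lower in mid/hindgut against early endoderm. In foregut against mid/hindgut 6.37% were higher and 5.74% lower. In foregut against early endoderm the shares were 10.6% and 6.49%. There 12 of 14 endothelial, 6 of 9 blood and 7 of 12 gut mesenchyme genes were higher, and 0, 0 and 1 lower. Their median log2 differences were 3.85, 1.53 and 1.60, beside 0.95 for the plasma protein genes. Gut epithelium genes, with 3 of 11 higher and 3 lower, had 0.41. Yolk sac uptake and hypoblast genes, with 3 of 15 higher and 4 lower, had −0.25. Of 11 blood genes on the array 7 of 10 measured were higher in mid/hindgut than in early endoderm and 0 lower. Their summed signal was 3398 in foregut, 6073 in mid/hindgut and 413 in early endoderm. LMO2 made up 1825 of it in foregut, 2740 in mid/hindgut and 97.8 in early endoderm. CA2 made up 943 in foregut, 273 in mid/hindgut and 23.5 in early endoderm. EPB42 was below the floor in foregut and mid/hindgut, and RHAG in all tissues. HBA1 was at 50.7 in foregut, 538 in mid/hindgut and 23.4 in early endoderm. Between foregut and mid/hindgut 1 of 9 was higher, CA2, and 4 were lower, the globin genes HBA1, HBE, HBZ and HBAD. The median log2 difference of the blood genes was −0.97 there, and 3.28 in mid/hindgut against early endoderm. Of 14 endothelial genes 12 were higher in mid/hindgut than in early endoderm and 0 lower. Their median log2 difference was 3.05, beside 2.82 for the plasma protein genes. Between foregut and mid/hindgut 1 endothelial gene was higher and 0 lower, with a median of −0.25. The endothelial sum was 9608 in foregut, 9762 in mid/hindgut and 402 in early endoderm. In early endoderm CDH5, FLT1, TEK, EMCN, ERG and VWF were below the floor. Of 12 measured gut mesenchyme genes 5 were higher and 4 lower in mid/hindgut than in early endoderm, with a median log2 difference of 0.59, and POSTN was at least 9.93-fold higher. In foregut against mid/hindgut 7 of 13 were higher and 1 lower, the opposite way to the plasma protein genes. Their sum was 3932 in foregut, 1245 in mid/hindgut and 2827.5 in early endoderm, of which COL1A2 made up 1011 in foregut, 312 in mid/hindgut and 1957 in early endoderm, with FOXF1 and HAND1 below the floor in every tissue. Genes of yolk sac uptake and hypoblast summed to 11595 in foregut, 6770 in mid/hindgut and 13306 in early endoderm. Of that, LAMB1 made up 4493 in foregut, 3180 in mid/hindgut and 4177 in early endoderm. OTX2 made up 3110 in foregut, 29.8 in mid/hindgut and 2101 in early endoderm. CER1 made up 2641 in early endoderm and was below the floor in foregut and mid/hindgut, at least 119-fold lower in each. In mid/hindgut against early endoderm 3 of 15 measured were higher and 4 lower. In this list AMN, the partner of cubilin, was below the floor in every tissue, and CUBN was at 38.2 in foregut, 51.5 in mid/hindgut and 32.1 in early endoderm. Of 10 measured gut epithelium genes 4 were higher and 0 lower in mid/hindgut than in early endoderm, SHH by at least 8.19-fold. In foregut against mid/hindgut 0 of 11 were higher and 4 lower, which were CDX2, CDX1, SOX17 and SHH. The other 7 were within 2-fold, among them EPCAM at 0.06 and CDH1 at 0.13 in log2. The gut epithelium median there was 0.13, beside −1.15 for the plasma protein genes and −0.97 for the blood genes. Gut epithelium genes summed to 19832 in foregut, 24152.5 in mid/hindgut and 23033 in early endoderm, with VIL1 below the floor in every tissue. The part of these cells in the plasma protein differences was not tested, and in such pools fewer cells of a type and less RNA per cell cannot be told apart. The signal of the 3' end over the 5' end of actin was 1.69 in foregut, 2.19 in mid/hindgut and 1.55 in early endoderm. For GAPDH the same ratio was 0.97 in foregut, 1.01 in mid/hindgut and 0.98 in early endoderm. The part of RNA quality was not tested either.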

How the data were processed

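The deposited values are MAS5 signal intensities on a linear scale, 1 per probe set and array, made by the authors with MAS5 per the submitters' processing notes; no source used here gives its version, its settings or detection calls. The chick endoderm pools were grouped by the tissue label. The number of arrays, 3, limits the precision.

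The arrays' 2% trimmed means were 155 in foregut, 160 in mid/hindgut and 192 in early endoderm and differed by over 10%, and each array was therefore brought to the mean of the 3. The floor was the 40th percentile of the 37693 chicken probe sets over the arrays. Genes were named from the platform annotation and updated by gene identifier to the RefSeq table, which matched 26863 probe sets; 177 probe sets with several genes were left out. A gene was represented by whichever probe set had the largest mean of floored log2 signal. Log2 values and folds were computed from the deposited intensities with NumPy 2.4.6 and pandas 2.3.3 in Python 3.11.15, and the steps were tested on simulated data. A gene counts as measured where it is above the floor on either array compared.

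The members and gene lists were chosen with earlier results of these data known. Genes named are the members, up to 4 list genes per list and comparison at least 2-fold apart, 5 nearest genes per member spanning 4-fold, and GAPDH and ACTB. PLG, FABP3, the chromosomal neighbours, and list genes within 2-fold or below the floor were named after their values were seen. SERPINA1 was matched through its synonym SPIA1. Alternatives were other scalings, floors, probe set rules and a 3-fold threshold.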

Additional observations from a re-analysis of the deposited data

Results flagged for a closer look

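A probe set annotated to both A2ML2 and A2M was left out of the comparisons because it has more than 1 gene. Its signal was 40.4 in mid/hindgut endoderm, above the floor, against 21.0 in early endoderm, and in foregut it was 0.897. The A2M probe set in use was also brightest in mid/hindgut, at 172, and A2ML2 by its own probe set was at 13.5 in foregut, 24.7 in mid/hindgut and 16.4 in early endoderm.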

How the results depend on the processing

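No paired analysis was possible because each tissue has 1 array, and no array could be left out. Of 156 called member differences that were still measured under an alternative, 151 were still at least 2-fold the same way and 0 changed sign. The 156 leave out calls lost because the gene had no measured difference under an alternative. These were FGA with the floor at the 60th percentile, APOB with probe set medians and APOA1 without shared probe sets. Each was lost from both comparisons in which it had been called. Counts of members moved as follows. With a floor at the 20th percentile or no floor, 1 member (main value 0) was higher in foregut than in mid/hindgut, and with no floor 2 (main value 1) were lower in foregut than in early endoderm. With a floor at the 60th percentile 3 (main value 5) were lower in foregut than in mid/hindgut. Fewer members were then higher in mid/hindgut than in early endoderm, since FGA was below that floor and APOB was at 0.31 in log2. A2M, at 0.67, was then no longer among those higher in foregut than in early endoderm. Over the median of a gene's probe sets 2 (main value 4) were higher in foregut than in early endoderm, where TTR was at 0.84 and A2M at 0.70 in log2. APOB then had no measured difference and left the counts of both comparisons with mid/hindgut. Leaving out probe sets shared between transcripts gave 0 lower in foregut and 0 in mid/hindgut than in early endoderm, since APOA1 then has no value, and 3-fold in place of 2-fold gave 0 lower in mid/hindgut. At 3-fold FGA, at 2.65-fold, no longer counted as higher in mid/hindgut than in early endoderm or as lower in foregut than in mid/hindgut. A2M, at 2.63-fold, no longer counted as higher in foregut than in early endoderm. DGAT2 in foregut against early endoderm was at −1.74 in log2, and at −0.65 over the median of its probe sets. It changed sign to 1.03 when hybridisation controls set the scale, where GATA5 moved only from −1.50 to −0.92. Scaling and probe set choice were not tested apart as the cause. Scaling on hybridisation controls moved the median of all genes to 0.62 in foregut against early and 0.57 in foregut against mid/hindgut. Without scaling it was −0.21 in foregut and −0.22 in mid/hindgut against early. TFPI, with 0.85 in mid/hindgut against early endoderm, was within 2-fold without shared probe sets. Over all alternatives TTR in mid/hindgut against early endoderm ranged from 2.88 to 5.76 and A2M in foregut against early from 0.67 to 1.98. Signals near the floor limit ALB, AFP, FGA and APOB.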
